A study of Mus musculus with 18 samples.

Results

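Chromatin remodelers and transcription coregulators were followed through 47 named genes in the left ventricle of mice whose hearts enlarged with running or with pregnancy. All 47 genes had at least 1 probe set annotated to that gene alone, and these 164 probe sets of the 45037 tested, from 47 of 18193 genes, are the members described. A probe set is a group of short oligonucleotides on the array that reads 1 stretch of a transcript. In 5 genes (Ep300, Setd2, Arid1b, Smarcc2 and Med12) a single probe set was available, and the other 42 genes had between them 117 further probe sets besides the brightest of each gene. Here the brightest probe set is the one with the highest mean over all arrays and the others are called dimmer. Brightness is used only to name probe sets, since it depends on how well the oligonucleotides bind as well as on the amount of RNA.

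The samples were 18 Affymetrix arrays of left ventricular RNA from wild type female C57Bl/6 mice aged 3-4 months, with 3 arrays in each of 6 groups. NP/Sed were sedentary, non-pregnant mice, 7EX and 21EX were non-pregnant mice given voluntary running wheels for 7 or 21 days, MP were pregnant mice at gestation day 11, LP at days 18 to 19, and 0PP were mice within 12 hours of giving birth. Each array held RNA pooled from 2 to 3 hearts, so the pool is the replicate, n = 3 throughout, and a single heart's spread is not seen. No group carried a transgene or a deletion. Values are log2 RMA intensities and differences are log2 fold changes ± standard error, taken against NP/Sed where no second group is named. A probe set passed where the two-sided limma test gave a Benjamini-Hochberg adjusted p under 0.05 over all 45037 probe sets of the comparison, and a gene counted where at least 1 of its probe sets passed.

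DNA in the nucleus is wound on histones, and many of the genes described here encode proteins that change how open that packing is. Others, such as Bclaf1 and Zc3h4, encode nuclear proteins of transcription or RNA processing. Acetyltransferases and methyltransferases place marks on histone tails and demethylases remove them, ATP-driven remodelers of the SWI/SNF, ISWI and CHD families slide or evict nucleosomes, and coregulators such as Mediator and the NCoR and SIN3 complexes link DNA-bound factors to RNA polymerase II or to histone deacetylation. In heart muscle, p300 and CBP are known as coactivators of growth-related transcription, and the SWI/SNF ATPase BRG1 as a regulator of the myosin heavy chain genes.

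Cardiomyocyte markers were high on every array, and the summed markers of several other cell types were higher in 21EX than in NP/Sed. The brightest probe sets of all 8 cardiomyocyte marker genes lay between 11.8 and 14.9 on every array, and none of these brightest probe sets passed in 21EX, although a dimmer probe set of 1 gene was lower there. The log2 of their summed level was 17.302 to 17.315 in 21EX and 17.321 to 17.341 in NP/Sed. Atrial markers, which bear on the ventricular label, were uneven, with sums of 11.541 to 12.755 in 21EX and 11.609 to 12.063 in NP/Sed. Their median change was 0.63 in 7EX, 0.46 in 21EX, 0.86 in MP, 0.15 in LP and 0.88 in 0PP. Over all arrays Myl7 ran from 8.101 to 10.981 and Sln from 5.833 to 9.334. The part of atrial tissue was not tested. In 21EX 1 of 7 macrophage genes and 1 of 6 cell division genes were higher, and 0 of 6 fibroblast, 0 of 6 endothelial, 0 of 5 smooth muscle, 0 of 5 lymphocyte, 0 of 5 adipocyte, 0 of 3 erythroid and 0 of 5 atrial genes passed in limma. Of these 35 genes 14 had a probe set at unadjusted p under 0.05 and 3 passed by Cyber-T, a two-group test that borrows the spread of probe sets of like level. The summed macrophage markers reached 11.516 to 11.651 in 21EX against 11.163 to 11.342 in NP/Sed, those of endothelium 11.621 to 11.714 against 11.267 to 11.57, those of lymphocytes 7.821 to 7.891 against 7.704 to 7.784, those of adipocytes 13.529 to 13.543 against 13.463 to 13.494, and those of cell division 8.198 to 8.526 against 7.758 to 8.137. None of these ranges overlapped, while those of fibroblasts, smooth muscle, erythroid and atrial cells did, and that of cardiomyocytes was wholly lower in 21EX. The adipocyte sum was almost wholly Fabp4, at 13.447 to 13.746 over all arrays, where Adipoq ran from 3.267 to 7.42. In the lymphocyte sum Cd79a, Cd79b and Cd3g lay between 3.647 and 4.546. Neither sum is a count of cells. The 3' minus 5' difference of the beta-actin control probe sets, a sign of RNA integrity, was 1.17 to 1.22 in 21EX and 1.11 to 1.36 in NP/Sed, so these groups overlapped, while in 7EX it was 1.05 to 1.09. The part of these in the results was not tested, except that a fit with the 3' minus 5' differences as covariates is given below.

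After 21 days of running, 15 of the 47 genes had a probe set that was lower than in NP/Sed and 1 gene, Smarca2, had one that was higher. These 16 genes are 34% of the 47, where 5.16% of all 18193 genes passed in either direction, 2.21% were lower and 2.98% higher. Among all genes with 2 or more probe sets, 4.28% were lower. By probe set, 23 of 164 (14.0%) were lower, against 1.37% of all probe sets, and 1 was higher, against 1.38% of all. In either direction 2.75% of all probe sets passed. Of the 23, 21 were not the brightest of their gene (91.3%), as were 399 of the 475 lower probe sets of all genes (84%), so this split was near that of the whole array. Of the 47 brightest probe sets 2, those of Bclaf1 and Crebbp, were lower (4.26%), where 0.418% of the brightest probe sets of all genes were. The 23 changes ran from -1.44 to -0.40 with a median of -0.91, and all 3 arrays of 21EX lay below all 3 of NP/Sed in each of the 23. They were chosen on this contrast, and the share of all probe sets lying so was not counted. The brightest probe sets of the other 13 genes changed by -0.45 to 0.20 and none passed. In bulk tissue fewer cells of a type and less RNA per cell cannot be told apart.

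**Figure D1:**
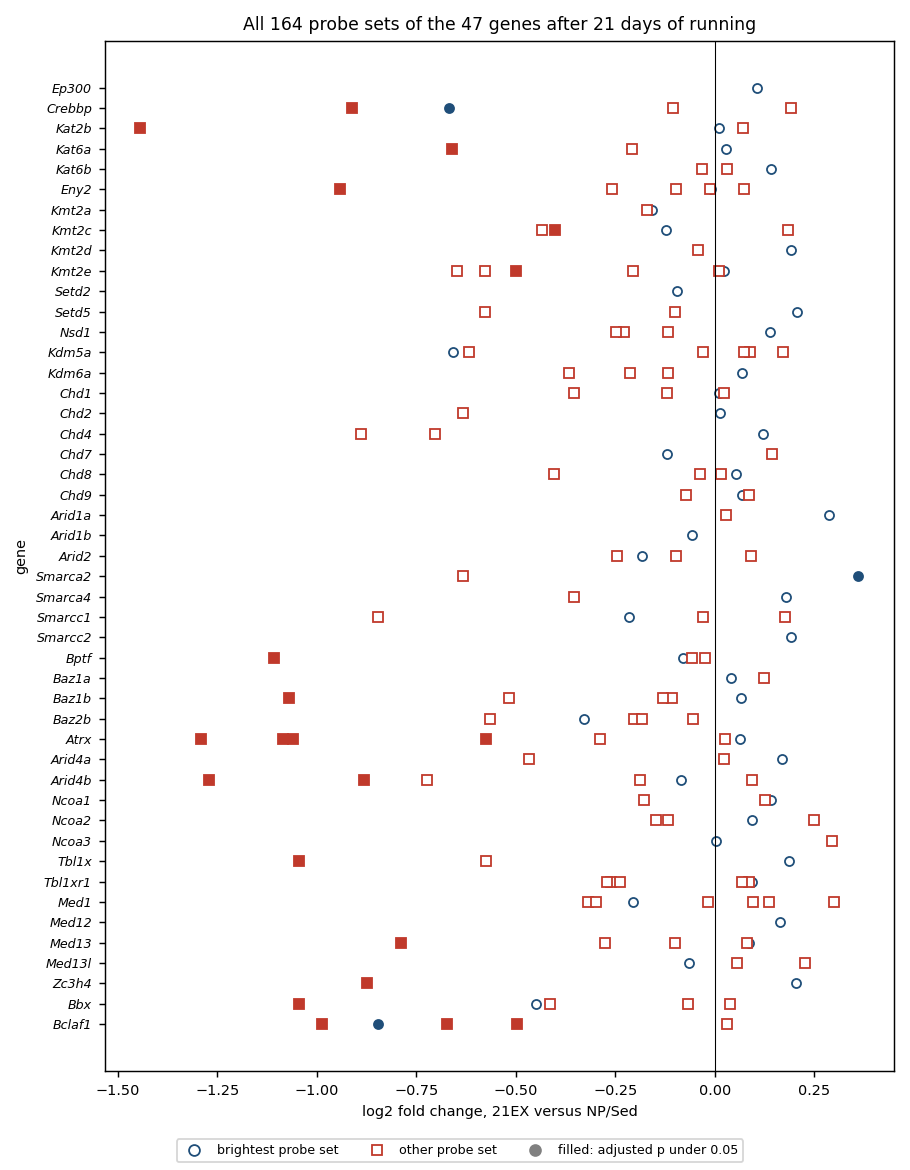
Log2 fold change in 21EX against NP/Sed (horizontal axis) for each of the 164 probe sets, 1 line per gene, with circles for the brightest probe set of a gene, squares for the others and filled symbols where the adjusted p was under 0.05. The circles sit near 0 for most genes, while 21 filled squares lie between -1.44 and -0.40.

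This count depended on single arrays. Without array 2 of 21EX it was 1 gene, without array 3 of 21EX 3 genes, and without NP/Sed arrays 1, 2 or 3 it was 4, 2 and 7 genes. The sizes changed less than the calls: without array 2 of 21EX all 23 probe sets stayed under 0, from -1.19 to -0.29 with a median of -0.75, and 1 of them passed. With the 3' minus 5' differences of Gapdh and beta-actin as covariates the count was 3 genes and 4 of the 23 probe sets, with a median of -0.89. The list was also drawn up with earlier results of these arrays known. Its first 9 genes, from Atrx to Tbl1xr1, stand outside its order by family and may have been put there for their change in these arrays, so the share of the 47 genes is not independent evidence. These 9 held 14 of the 23 lower probe sets among their 41, and the other 38 genes held 9 of 123 (7.32%).

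Among the acetyltransferases, 3 of 5 genes had a lower probe set in 21EX. Kat2b encodes PCAF, the acetyltransferase of the PCAF and related coactivator complexes. Its dimmer probe set 1450821_at read 7.37, 6.85 and 6.72 in NP/Sed, 5.38, 6.11 and 5.95 in 7EX, 5.64, 5.03 and 5.95 in 21EX, 6.55, 5.60 and 5.87 in MP, 6.07, 6.63 and 7.05 in LP, and 6.74, 6.23 and 5.85 in 0PP. All exercise and MP arrays were below all NP/Sed arrays, while LP and 0PP reached into the NP/Sed range. The change was -1.44 ± 0.30 in 21EX (adjusted p = 0.0204), the lowest of all 164 probe sets. The brightest Kat2b probe set, 1434037_s_at, stayed between 10.21 and 10.32 in NP/Sed and between 10.26 and 10.32 in 21EX, a change of 0.01 with a 95% interval of -0.14 to 0.16. The dimmer minus the brightest probe set, taken within each array, fell by 1.45 ± 0.29 (adjusted p = 0.0182 over all 16752 such pairs). The remaining Kat2b probe set, 1457809_at, changed by 0.07 ± 0.12 in 21EX and did not pass.

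Crebbp encodes CBP, a broad coactivator that acetylates histones. Its brightest probe set, 1436983_at, read 8.96, 9.04 and 8.80 in NP/Sed and 8.45, 7.85 and 8.49 in 21EX, a change of -0.67 ± 0.17 (adjusted p = 0.042). The dimmest, 1459804_at, read 4.68, 4.55 and 4.62 in NP/Sed and 3.81, 3.51 and 3.80 in 21EX, a change of -0.91 ± 0.21 (adjusted p = 0.0283). Neither pair of groups overlapped. The probe sets between these in brightness behaved otherwise: 1435224_at changed by -0.10 ± 0.08 and 1434633_at by 0.19 ± 0.08, neither past the test, and the latter moved apart from the brightest by 0.86 ± 0.18 (adjusted p = 0.0183). Here, then, the brightest probe set was among those that fell.

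Kat6a encodes the MOZ acetyltransferase. Its probe set 1437487_at read 5.97, 5.65 and 5.92 in NP/Sed and 5.28, 5.04 and 5.25 in 21EX, without overlap, a change of -0.66 ± 0.17 (adjusted p = 0.0436). The brightest, 1436315_at, changed by 0.03 ± 0.07. The remaining acetyltransferases, Ep300 and Kat6b, had no probe set and no pair past the test in any comparison. Eny2, a small subunit of the SAGA coactivator complex, had 6 probe sets of which 1 was lower. That one, 1457758_at, read 5.18, 5.76 and 5.25 in NP/Sed and 4.80, 4.23 and 4.33 in 21EX, a change of -0.94 ± 0.22 (adjusted p = 0.0315), while the brightest, 1460392_a_at, changed by -0.01 ± 0.10 and the pair differed by -0.93 ± 0.20 (adjusted p = 0.0211).

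**Figure D2:**
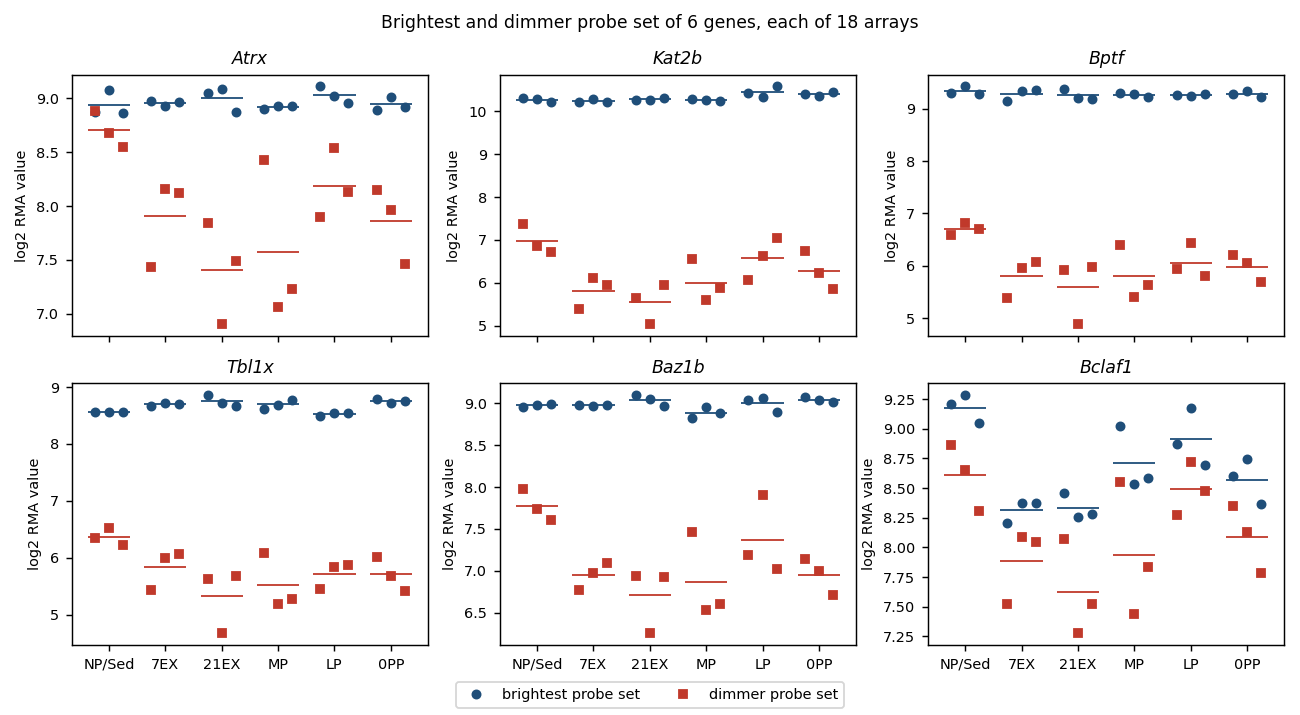
Log2 RMA values (vertical axes, each with its own range) for 6 genes on each of the 18 arrays by group, with lines at the group means. Circles are the brightest probe set, and squares are 1 dimmer probe set picked because it was lower in 21EX. Other dimmer probe sets of these genes are not shown, and some were not lower, as Kat2b 1457809_at at 0.07. In Atrx, Kat2b, Bptf, Tbl1x and Baz1b the circles change by -0.08 to 0.19 from NP/Sed to 21EX while the squares change by -1.44 to -1.04, and in Bclaf1 both drop.

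Of the 7 histone methyltransferases, Kmt2c and Kmt2e were lower in 21EX at 1 probe set each. Kmt2e encodes MLL5, a PHD and SET domain protein. Its probe set 1427236_a_at read 8.94, 9.01 and 8.86 in NP/Sed, 8.69, 8.15 and 8.47 in 21EX and 8.56, 8.49 and 8.16 in MP. Both groups lay wholly below NP/Sed, by 0.50 ± 0.11 in 21EX (adjusted p = 0.0283) and by 0.53 ± 0.11 in MP (adjusted p = 0.0294). The brightest Kmt2e probe set, 1434704_at, changed by 0.02 ± 0.08 and -0.10 ± 0.08. Kmt2c, the MLL3 histone H3 lysine methyltransferase, changed by -0.40 at 1427150_at and by -0.12 at its brightest probe set. Kmt2a (MLL1), of the same family, had no lower probe set in 21EX. For Nsd1, a lysine methyltransferase, no probe set passed, but 1456916_at moved apart from the brightest by -0.37 (adjusted p = 0.043). Setd2, Setd5 and Kmt2d had none.

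Of the demethylases, Kdm6a had no probe set and no pair past the test. Kdm5a, which removes methyl groups from histone H3 lysine, was an example in the opposite order of brightness: its brightest probe set, 1452360_a_at, changed by -0.66 without passing (adjusted p = 0.074), while 1437105_at changed by 0.17, and this pair differed by 0.83 (adjusted p = 0.0462). Its pair with 1445541_at also passed. That probe set changed by only 0.07, so the pair mostly restates the change of the brightest. Its mean was 3.25, and 11.6% of all probe sets had a lower one. Whether this level kept it from falling was not tested, and Atrx 1420948_s_at was lower at a mean of 3.45.

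Among the remodelers, SWI/SNF held the single rise. Smarca2 encodes BRM, 1 of the alternative ATPases of that complex. Its brightest probe set, 1430526_a_at, read 7.97, 7.72 and 7.65 in NP/Sed and 8.12, 8.18 and 8.12 in 21EX, a rise of 0.36 (adjusted p = 0.0352), and its other probe set, 1452333_at, read 8.12, 8.08 and 7.93 against 7.73, 6.84 and 7.67, a change of -0.63 that did not pass (adjusted p = 0.0867). The 2 probe sets of this gene thus separated by 0.99 (adjusted p = 0.0245), and which is taken decides the sign. The other ATPase, Smarca4 (BRG1), changed by 0.18 at its brightest probe set, and the pair with 1426805_at differed by -0.53 (adjusted p = 0.0443). In Smarcc1, a core subunit, 1455246_at moved by 0.39 relative to the brightest (adjusted p = 0.0338). Arid1a, Arid1b, Arid2 and Smarcc2 had nothing past the test. Among the 6 CHD remodelers only Chd4, the ATPase of the NuRD complex, had a pair past it. Its probe sets 1438476_a_at and 1436343_at parted from the brightest by -1.01 and -0.83 (adjusted p = 0.0375 and 0.047).

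In the group of ISWI partners, BAZ proteins and ATRX, 3 of 5 genes had lower probe sets in 21EX. Atrx encodes a SWI/SNF-like ATPase that works with DAXX in depositing histone H3.3. It had 7 probe sets, of which 4 were lower. The one with the largest change, 1450051_at, read 8.88, 8.68 and 8.54 in NP/Sed, 7.43, 8.16 and 8.12 in 7EX, 7.84, 6.90 and 7.49 in 21EX, 8.43, 7.07 and 7.23 in MP, 7.90, 8.53 and 8.13 in LP, and 8.15, 7.97 and 7.46 in 0PP. Every array of the other groups was below every NP/Sed array, though array 2 of LP only just so. The change in 21EX was -1.29 ± 0.30 (adjusted p = 0.0313). Atrx 1420946_at and 1420947_at changed by -1.09 and -1.06, and the dimmest, 1420948_s_at, by -0.57 ± 0.11 (adjusted p = 0.0165). The brightest probe set, 1433537_at, read 8.88, 9.08 and 8.87 in NP/Sed and 9.05, 9.08 and 8.87 in 21EX, a change of 0.06 with a 95% interval of -0.10 to 0.23. Not every dimmer probe set fell, as 1453734_at changed by 0.03, nor was each of the lowered ones dim, as 1420947_at had a mean of 8.78 beside 8.97 for the brightest. All 4 lowered probe sets differed from the brightest, by -0.64 to -1.35.

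Baz1b encodes WSTF, a bromodomain partner of the ISWI ATPase. Its probe set 1450068_at read 7.98, 7.74 and 7.60 in NP/Sed and 6.93, 6.25 and 6.93 in 21EX, without overlap, a change of -1.07 ± 0.24 (adjusted p = 0.0276). The brightest, 1434824_at, stayed between 8.96 and 9.10 in both groups, a change of 0.06 with a 95% interval of -0.08 to 0.21, and the pair differed by -1.13 ± 0.25 (adjusted p = 0.0217). Bptf, the largest subunit of the NURF remodeler, changed by -1.11 at 1427311_at, from 6.59 to 6.82 in NP/Sed to 4.88 to 5.98 in 21EX, and by -0.08 at its brightest probe set (interval -0.24 to 0.08). The remaining Bptf probe sets, 1427310_at and 1439102_at, moved by 0.02 and 0.05 relative to the brightest. Baz1a and Baz2b had no probe set and no pair past the test.

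Corepressor subunits repeated the pattern. Arid4b, a subunit of the SIN3 histone deacetylase complex, was lower at 2 of 6 probe sets. Probe set 1431024_a_at read 6.72, 6.62 and 6.46 in NP/Sed and 5.92, 4.84 and 5.23 in 21EX, a change of -1.27 ± 0.31 (adjusted p = 0.0352), and 1460384_a_at read 7.33, 7.14 and 6.63 against 6.55, 5.92 and 6.00, a change of -0.88 ± 0.19 (adjusted p = 0.0222). Neither overlapped between the groups. The brightest, 1435768_at, changed by -0.09 ± 0.11. Its relative Arid4a had nothing past the test.

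Tbl1x encodes TBL1, an NCoR corepressor subunit that also takes part in exchanging corepressors for coactivators. Its probe set 1434644_at read 6.35, 6.52 and 6.23 in NP/Sed and 5.62, 4.67 and 5.67 in 21EX, without overlap, a change of -1.04 ± 0.25 (adjusted p = 0.036). The brightest, 1455042_at, changed by 0.19 with a 95% interval of 0.04 to 0.33 (adjusted p = 0.138), and the pair differed by -1.23 ± 0.26 (adjusted p = 0.0194). The closely related Tbl1xr1 did not pass in 21EX at any of its 6 probe sets, whose changes ran from -0.27 to 0.09.

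Of the 4 Mediator genes, Med13, a subunit of the kinase module, was lower at 1 of 5 probe sets. That one, 1436904_at, read 5.27, 5.21 and 5.08 in NP/Sed and 4.43, 4.28 and 4.48 in 21EX, a change of -0.79 ± 0.17 (adjusted p = 0.0217), and the brightest, 1453160_at, changed by 0.08 ± 0.09. Med1, Med12 and Med13l, and the nuclear receptor coactivators Ncoa1, Ncoa2 and Ncoa3, had no probe set and no pair past the test in any comparison.

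Bclaf1, a nuclear protein of RNA processing and transcription, was the gene in which the brightest probe set fell with the others. Probe set 1428845_at read 9.21, 9.28 and 9.05 in NP/Sed, 8.20, 8.38 and 8.38 in 7EX, 8.46, 8.26 and 8.28 in 21EX, 9.02, 8.53 and 8.59 in MP, 8.87, 9.18 and 8.69 in LP, and 8.60, 8.74 and 8.36 in 0PP. The exercise, MP and 0PP arrays lay below all NP/Sed arrays, array 1 of MP only just so, and LP overlapped them. The change was -0.85 ± 0.13 in 21EX (adjusted p = 0.0119), and it was the 1 probe set of the 23 that still passed without array 2 of 21EX (adjusted p = 0.0484). Bclaf1 1436023_at, 1438089_a_at and 1428844_a_at changed by -0.99, -0.67 and -0.50 and passed as well. The remaining probe set, 1430581_at, lay between 2.59 and 2.98 on all arrays and changed by 0.03. Only 1.09% of all probe sets had a lower mean than its 2.76, and whether it had room to fall was not tested. As it hardly changed, its pair with the brightest mostly restates the change of the latter. Of the other nuclear factors, Zc3h4, a zinc finger protein of transcription termination, changed by -0.87 at 1457458_at and by 0.20 at its brightest probe set, and Bbx, an HMG box protein, by -1.04 at 1422741_a_at and by -0.45 at its brightest, neither of which brightest probe sets passed.

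Taking all pairs, 25 of 117 dimmer probe sets (21.4%) moved apart from the brightest of their gene in 21EX, in 18 genes, where 5.24% of all 16752 pairs did, 4.26% with the dimmer probe set lower and 0.979% with it higher. In 20 of the 25 the dimmer probe set was the lower in its change, and in 5, from Crebbp, Kdm5a, Smarcc1 and Bclaf1, it was the higher. In 5 of the 25 the dimmer probe set had a mean under 5, among them the pairs of Bclaf1 1430581_at and Kdm5a 1445541_at, and in the remaining 20 it was the lower in 17 and the higher in 3. Of the 117 differences 79 (67.5%) were below 0, with a median of -0.17, and of all pairs 60.7%, with a median of -0.05. Without the 9 genes named first, 14 of 85 pairs passed (16.5%). Without array 2 of 21EX 0 pairs passed in limma, and without NP/Sed arrays 1, 2 or 3 the count was 5, 6 and 6. With the 3' minus 5' covariates 12 passed.

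The 23 lower probe sets spanned the range of levels. With a mean under 5, 4 of 46 member probe sets were lower (8.7%), between 5 and 7 it was 8 of 46 (17.4%), and above 7 it was 11 of 72 (15.3%), against 0.789%, 2.1% and 1.8% of all probe sets at these levels. Names ending in _a_at, which Affymetrix gives to probe sets that read several transcripts of 1 gene, made up 6 of the 23 (26.1%) and 19 of the 164 (11.6%). Just inside the threshold were Atrx 1420947_at (-1.06, adjusted p = 0.0475) and Zc3h4 1457458_at (-0.87, adjusted p = 0.0478), and just outside it Arid1a 1448709_at (0.29, adjusted p = 0.056) and Chd4 1438476_a_at (-0.89, adjusted p = 0.0589).

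The same probe sets were also low on arrays of other groups, and they went up and down together from array to array. These 23 were chosen by their values in 21EX, so the rest is a description, and all these comparisons share the NP/Sed arrays. Their median change was -0.91 in 21EX, -0.71 in 7EX and -0.72 in MP, and smaller in LP at -0.40 and in 0PP at -0.61. All 3 arrays lay below all of NP/Sed in 22 of them in 7EX, 16 in MP, 10 in LP and 18 in 0PP. The share of all probe sets lying so was not counted, so these numbers describe the 23 alone. By array, the median distance from the NP/Sed mean was -0.58, -1.17 and -0.84 in 21EX, -0.93, -0.52 and -0.56 in 7EX and -0.27, -1.07 and -0.83 in MP. Array 2 of 21EX was the lowest of its group in 23 of 23 and the lowest of all 18 arrays in 16, array 1 of 7EX was the lowest of its group in 21, and array 1 of MP the highest of its group in 22. In LP and 0PP the array medians were -0.58, -0.14 and -0.42 and -0.44, -0.49 and -0.84. The median within-group correlation between lower probe sets of different genes was 0.735 (239 pairs over 18 arrays, which share their RNA and normalization), and between the 13 brightest probe sets that were not lower it was 0.25 (78 pairs).

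**Figure D3:**
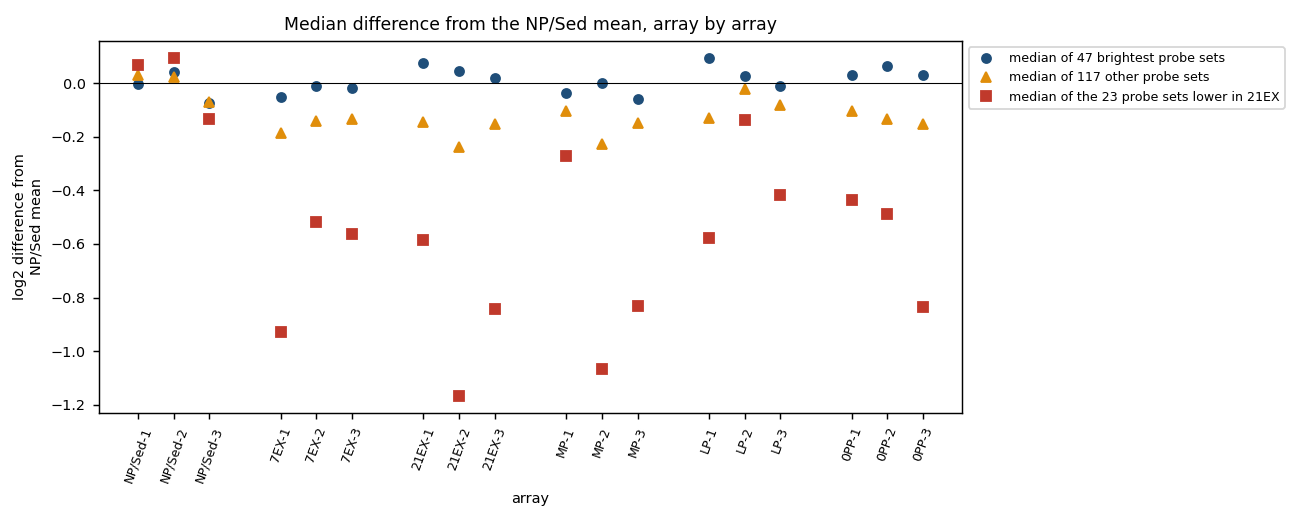
Median log2 difference from the NP/Sed mean (vertical axis) on each array, for the 47 brightest member probe sets (circles), the 117 others (triangles) and the 23 that were lower in 21EX (squares, chosen on that contrast). The squares run from -1.17 on array 2 of 21EX to 0.09 on array 2 of NP/Sed, and the circles stay between -0.07 and 0.10.

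In 7EX, Bclaf1 was the only gene of the 47 with a probe set past the test in limma (background 1.26% of all genes in either direction and 0.39% lower). It was lower by 0.86 ± 0.13 at 1428845_at (adjusted p = 0.00721) and by 0.58 ± 0.11 at 1428844_a_at (adjusted p = 0.026). The 1 pair past the test, against 0.298% of all pairs, set the brightest against the low 1430581_at and so adds nothing to it. All 6 measured cell division markers were higher in 7EX. So were 1 of 7 macrophage and 1 of 6 endothelial genes, and 1 of 8 cardiomyocyte genes was lower. The part of these in the 7EX values was not tested. Without NP/Sed array 2 no member gene passed in 7EX, and without MP arrays 1 or 2, which enter only through the shared spread, 3 and 2 genes did. No pair passed without NP/Sed array 2 or arrays 1 or 3 of 7EX. At unadjusted p under 0.05 there were 48 member probe sets in 7EX (29.3%, against 13.3% of all). Many more member genes and pairs passed by Cyber-T, as counted below, and the share of all genes by that test was not counted. Changes below -0.5 were seen in 21 of 117 dimmer ones (17.9%, against 2.38% of the dimmer probe sets of all genes) and in 1 of 47 brightest (2.13%, against 0.324%).

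In MP, 2 of the 47 genes were lower, against 2.11% of all genes in either direction and 0.94% lower. Besides Kmt2e, this was Kmt2a, whose probe set 1452377_at read 7.51, 7.32 and 7.12 in NP/Sed and 7.03, 6.75 and 6.69 in MP, a change of -0.49 (adjusted p = 0.0343), with -0.12 at its brightest. Among pairs 0 passed in limma, where 0.37% of all pairs did. At unadjusted p under 0.05 there were 45 of 117 (38.5%, against 16.2% of all pairs). By Cyber-T 17 passed, and the share of all pairs by that test was not counted. Many more member genes also passed by Cyber-T than in limma, as counted below. Of the dimmer probe sets 29 were below -0.5 (24.8%, against 3.22% of those of all genes), and of the brightest 2 were (4.26%, against 0.313%). Array 1 of MP was the highest of its group in 22 of the 23 probe sets lower in 21EX, and was not tested as an outlier. Without that array 21 genes and 31 pairs passed. No share of all genes or pairs is given for that fit, so these counts have no background. Without arrays 2 or 3 of MP or arrays 1 or 2 of NP/Sed the count was 0 genes, and without array 2 of 21EX it was 4. In MP 6 of 7 macrophage, 2 of 3 erythroid, 2 of 6 fibroblast and 1 of 5 adipocyte genes were higher. Of the cardiomyocyte genes 1 of 8 was lower. Summed macrophage levels were 11.627 to 11.851 against 11.163 to 11.342 in NP/Sed. The part of these cell types in the MP values was not tested.

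In LP, 1 member gene was higher and 0 were lower in limma (background 2.97% of all genes in either direction and 2.2% higher). At unadjusted p under 0.05 there were 29 member probe sets (17.7%, against 13.4% of all). By Cyber-T 8 genes passed, and the share of all genes by that test was not counted. The gene higher in limma was Tbl1xr1. Its brightest probe set, 1434839_s_at, read 8.34, 8.48 and 8.28 in NP/Sed, 8.37, 8.40 and 8.35 in 7EX, 8.46, 8.51 and 8.40 in 21EX, 8.44, 8.49 and 8.42 in MP, 8.65, 8.63 and 8.91 in LP, and 8.55, 8.53 and 8.47 in 0PP. The LP arrays were above all 15 others. The rise was 0.36 ± 0.08 (adjusted p = 0.022), and it was here the brightest probe set that passed. Of pairs 0 passed in limma, beside 0.233% of all pairs. At unadjusted p under 0.05 there were 21 (17.9%, against 12.1% of all pairs), and 1 passed by Cyber-T. Without array 3 of LP or of NP/Sed no gene passed, and without array 2 of LP or array 1 of NP/Sed 2 did. In LP 2 of 6 fibroblast genes were lower and 1 higher, and 1 of 5 adipocyte and 1 of 7 macrophage genes were higher. The summed adipocyte markers, almost wholly Fabp4, were 13.696 to 13.762 against 13.463 to 13.494 in NP/Sed. The part of these cell types was not tested.

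In 0PP, 3 member genes were lower in limma (background 3.86% of all genes in either direction and 0.792% lower). More member genes and pairs passed by Cyber-T, as counted below, and the share of all genes by that test was not counted. Bclaf1 1428845_at changed by -0.61 ± 0.13 (adjusted p = 0.0289). Crebbp 1459804_at read 4.00, 3.85 and 3.40, below all NP/Sed arrays, a change of -0.87 ± 0.21 (adjusted p = 0.0402), while its brightest probe set changed by -0.30. Bbx 1422741_a_at read 5.76, 5.77 and 5.51 in NP/Sed and 5.03, 5.11 and 3.96 in 0PP, a change of -0.98 (adjusted p = 0.0497). The same probe sets gave 2 of the 3 pairs past the test, at -0.57 for Crebbp (adjusted p = 0.0494) and -0.80 for Bbx (adjusted p = 0.0372), and Bclaf1 with the low 1430581_at the other, where 1.41% of all pairs passed. Without arrays 2 or 3 of NP/Sed or array 2 of 0PP 0 genes passed, and without array 3 of 0PP or of 21EX 1 did. Without any 1 of the NP/Sed arrays, or arrays 2 or 3 of 0PP, 0 pairs passed, without array 3 of 7EX or of 21EX 1 pair did, and without array 1 of MP 5 did. In 0PP 3 of 7 macrophage, 1 of 6 fibroblast, 1 of 6 endothelial and 1 of 3 erythroid genes were higher. Of the cardiomyocyte genes 1 of 8 was lower. The part of these cell types was not tested.

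**Figure D4:**
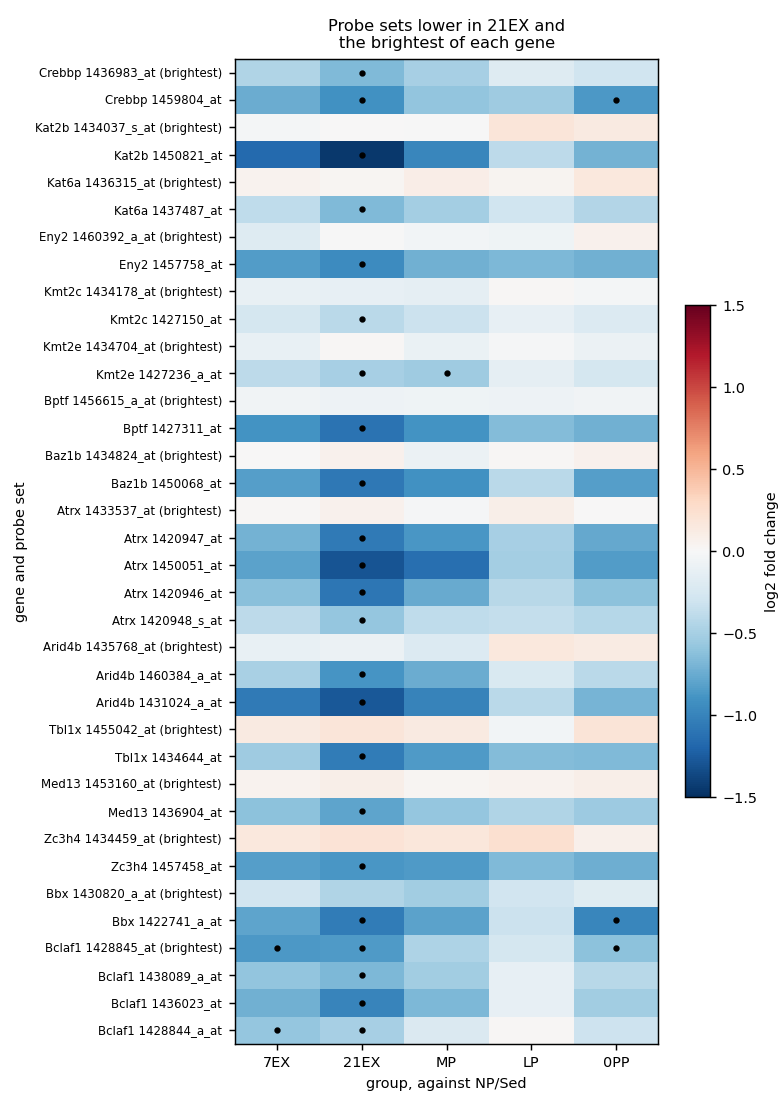
Log2 fold change against NP/Sed (colour) in each of the 5 other groups for the 23 probe sets lower in 21EX and the brightest probe set of each of their 15 genes, with a dot where the adjusted p was under 0.05. The brightest probe sets are pale for most genes, and the dots outside the 21EX column number 2 in 7EX, 1 in MP, 0 in LP and 3 in 0PP.

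In direct comparisons between the other groups the NP/Sed arrays enter only through the shared spread. From LP to 0PP, 0 member genes passed in limma and 0 by Cyber-T, where 1.64% of all genes passed in limma. At unadjusted p under 0.05 there were 12 of 164 probe sets, and the share of all probe sets at that cut was not counted. Of the markers, 3 of 6 fibroblast and 1 of 3 erythroid genes were higher in 0PP than in LP. Lower were 1 of 6 fibroblast and 1 of 5 adipocyte genes. The part of these cell types was not tested. From MP to LP 3 genes were higher, against 2.57% of all genes in either direction and 1.53% higher. These were Kat6a 1446405_at, Kmt2a 1452377_at and Tbl1xr1 1442312_at, with differences of 0.44 to 0.52, all at dimmer probe sets. Without arrays 2 or 3 of MP or array 3 of LP 0 passed, and without array 1 of LP 1 did. From MP to LP 3 of 6 fibroblast, 2 of 7 macrophage, 2 of 3 erythroid and 2 of 6 cell division genes were lower, and their part was not tested.

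Between 21EX and LP, 2 genes were lower in 21EX, against 5.22% of all genes in either direction and 2.11% lower. Bclaf1 was lower at 3 probe sets, by 0.52 to 0.58, the brightest included, and Tbl1xr1 at 1442312_at and 1450739_at, by 0.54 and 0.43. The 23 probe sets lower in 21EX against NP/Sed were also all below 0 against LP, with a median of -0.52, and 3 of them passed, but both comparisons use the 21EX arrays by which they were chosen. Without array 2 of 21EX 0 genes passed, without array 3 of 21EX or arrays 2 or 3 of LP 1 did, and without array 1 of 21EX, MP or LP 4 did. Between these groups 4 of 6 fibroblast and 4 of 6 cell division genes were higher in 21EX and 1 fibroblast gene was lower. Also higher were 1 of 6 endothelial and 1 of 3 erythroid genes. Also lower were 1 of 7 macrophage and 1 of 5 adipocyte genes. The part of these cell types was not tested.

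Of the 47 genes, 24, with 67 probe sets, had neither a probe set nor a pair past the test in any comparison. Their changes against NP/Sed ran from -0.69 to 0.41, and those of their brightest probe sets from -0.40 to 0.38. Of these, 4 are named by the intensity of their brightest probe set alone, which ranks no RNA: Arid2 and Arid1a, which encode DNA-binding subunits of PBAF and BAF, Med13l, a paralogue of Med13, and Kmt2d, a methyltransferase of enhancers. In 21EX their brightest probe sets changed by -0.18 for Arid2 (95% interval -0.36 to -0.01), 0.29 for Arid1a (0.12 to 0.45), -0.07 for Med13l (-0.24 to 0.10) and 0.19 for Kmt2d (0.01 to 0.37). A value that missed the test is thus bounded but not shown to be 0.

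Further chromatin genes were counted in 21EX in the same way. Of 178 further genes of the same families and of related ones, with 449 probe sets, 11 were lower and 5 higher, and 2.67% of their probe sets were lower, beside 14.0% of the member probe sets and 1.37% of all. The difference between the lists was not tested. By family the genes lower and higher were 2 and 0 of 20 for other SWI/SNF, ISWI and INO80 subunits, 2 and 0 of 11 for other CHD and NuRD subunits, 0 and 1 of 18 for other methyltransferases, 1 and 0 of 16 for Polycomb, 1 and 0 of 15 for other demethylases, and 0 and 1 of 19 for other acetyltransferase complexes. They were 2 and 0 of 24 for deacetylases and corepressors, 1 and 0 of 8 for bromodomain readers, 0 and 2 of 28 for other Mediator subunits, 1 and 0 of 11 for other coactivators and 1 and 1 of 8 for enzymes of DNA methylation.

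Several of these genes also split by probe set. Smarca5, the ISWI ATPase SNF2H, changed by -0.93 at 1424207_at and -0.40 at its brightest, Gatad2b of NuRD by -0.71 and 0.05, Ezh1 of Polycomb by -0.83 and 0.13, and Rcor1, the CoREST scaffold, by -0.74 and 0.24. Ppargc1a, the coactivator of mitochondrial genes, was the exception, lower by 1.03 at its brightest probe set. Med27 and Cdk19 of Mediator were higher by 0.44 and 0.40, also at their brightest. Of 271 pairs in these lists 5.54% passed, beside 21.4% of the member pairs and 5.24% of all pairs. Without the first 9 member genes the share of member pairs was 16.5%.

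**Figure D5:**
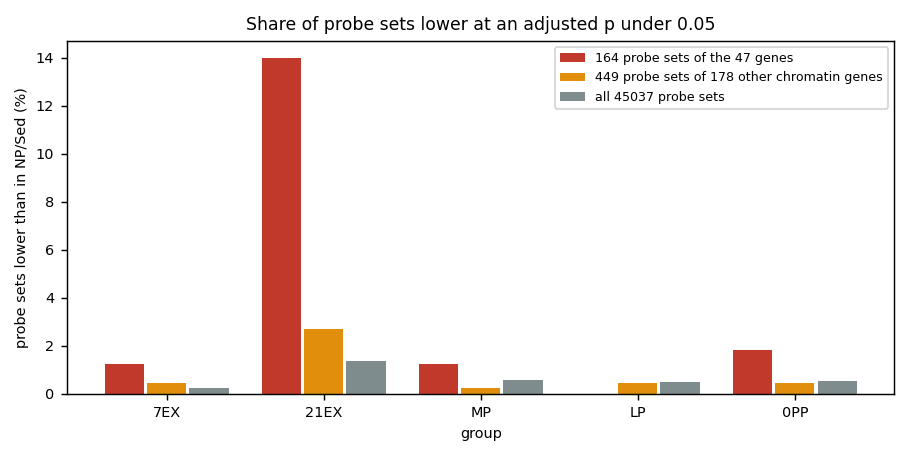
Share of probe sets lower than in NP/Sed at an adjusted p under 0.05 (vertical axis, percent) in each of 5 groups, for the 164 probe sets of the 47 genes, 449 of 178 other chromatin genes and all 45037. In 21EX the bars stand at 14.0%, 2.67% and 1.37%. In the other groups none exceeds 1.83%, with 0.251% of all probe sets lower in 7EX, 0.548% in MP, 0.484% in LP and 0.517% in 0PP. The 47 genes were listed with earlier results of these arrays known, and without the first 9 of them the 21EX share was 7.32%.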

How the data were processed

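Left ventricular RNA of 18 pools was measured on Affymetrix mouse expression arrays. The deposited log2 values were made by the authors with RMA, named in the submitters' processing notes, which corrects background, quantile-normalizes the arrays and sums up the oligonucleotides of each probe set, and were not renormalized here. Array medians were 4.939 to 5.027. Of 45101 probe sets 64 controls were left out. In GEO's platform annotation 34945 of the remainder had 1 gene, 932 several and 9160 none, and only the first kind was assigned to genes (34741 matched a RefSeq gene ID). Probe positions within transcripts are not given in the sources used here.

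Groups came from the sample labels. limma 3.58.1 (R 4.3.3) was fitted to the 6 groups together (12 residual and 6.45 prior degrees of freedom), with two-sided moderated tests and Benjamini-Hochberg adjustment over all probe sets of a comparison at 0.05. Within each array the brightest probe set of a gene was subtracted from each of the others, and these 16752 pairs were tested alike. The number of arrays limits the precision. Scripts were tested on simulated data. The members, lists and tests were chosen with earlier results of these data known. Genes named were those with a probe set or pair past the test, 12 with the smallest p in full, plus the 4 brightest of the rest. The original study required Cyber-T and a 75% change together, and that joint rule was not run here. As alternatives the 75% limit was put on the limma calls, and Cyber-T was reimplemented with Benjamini-Hochberg adjustment and no fold limit. Further alternatives were other fits, filters and normalizations, a replicate block, 3' minus 5' covariates and each array left out. Same-numbered arrays of different groups did not deviate together (correlations of -0.269 to 0.179, median -0.041, 45 pairs), so the numbers were not taken to pair them.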

Additional observations from a re-analysis of the deposited data

Results flagged for a closer look

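The changes against NP/Sed differed between LP and MP in limma at 3 dimmer probe sets (Benjamini-Hochberg adjusted p over all probe sets). The difference was 0.44 for Kat6a 1446405_at (adjusted p = 0.0255), 0.45 for Kmt2a 1452377_at (adjusted p = 0.0443) and 0.52 for Tbl1xr1 1442312_at (adjusted p = 0.0273), each higher in LP. Between 21EX and LP they differed at 5 probe sets, each lower in 21EX, with differences of -0.52 for Bclaf1 1428844_a_at (adjusted p = 0.0132), -0.58 for Bclaf1 1428845_at (adjusted p = 0.0211), -0.55 for Bclaf1 1438089_a_at (adjusted p = 0.0343), -0.54 for Tbl1xr1 1442312_at (adjusted p = 0.012) and -0.43 for Tbl1xr1 1450739_at (adjusted p = 0.0347). With 3 arrays a group no single array was tested as an outlier. Without array 2 of 21EX no gene passed between 21EX and LP, and without array 2 or 3 of MP or array 3 of LP none passed between LP and MP.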

How the results depend on the processing

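The 40 named changes kept their direction under all 27 other settings that could be run (1072 values, 0 reversed). Of these values 772 stayed on the same side of the threshold. Many of the settings could not reverse a change. The fold limit, the fit of only the groups compared, the intensity trend, the replicate block and Cyber-T leave the log2 fold change as it is. So does leaving out an array of a group outside the comparison. The named changes were also chosen on these same arrays. Counts of member genes moved with most settings, and the cause was not tested. Counts below are of genes unless pairs are named, and the main counts were 1 (7EX), 16 (21EX), 2 (MP), 1 (LP), 3 (0PP), 0 (0PP against LP), 3 (LP against MP) and 2 (21EX against LP), with 1, 25, 0, 0 and 3 pairs in the first 5. With a 75% fold limit MP, LP, LP against MP and 21EX against LP gave 0 genes and 0PP 0 pairs. Fitting only the 2 groups compared gave 7 genes and 5 pairs in 7EX, 10 genes in 21EX, 0 in MP, 0 in LP, 7 genes and 5 pairs in 0PP, 0 in LP against MP and 1 in 21EX against LP. An intensity trend gave 6 in MP and 4 in 21EX against LP. A mean log2 of at least 5 gave 6 in 0PP, 5 in 21EX against LP and 0 pairs in 7EX and 0PP. Repeated quantile normalization gave 1 gene and 1 pair in 0PP, and median centring 7 genes in 0PP. The 3' minus 5' covariates gave 0 genes and 0 pairs in 7EX, 3 and 12 in 21EX, 0 genes in MP and LP, 0 and 0 in 0PP, and 1 gene in LP against MP and 1 in 21EX against LP. Cyber-T without a fold limit gave 20 genes and 20 pairs in 7EX, 24 and 17 in MP, 8 and 1 in LP, 17 and 21 in 0PP, and 9 genes in LP against MP and 9 in 21EX against LP. Shares of all genes and pairs by Cyber-T were not counted. The Cyber-T gene counts of 7EX, MP and 0PP lay above the main limma count of 21EX. How far the calls are confined to 21EX thus depends on the test. The brightest probe set alone gave 4 genes in 21EX and 0 in MP and in LP against MP. Averaging each gene's probe sets gave 5 in 21EX, 1 in MP, 0 in LP, 0 in 0PP and 1 in LP against MP. The dimmest against the brightest alone gave 10 pairs in 21EX.

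These last alternatives were chosen after seeing the data. Without the 9 genes named first there were 0 genes and 0 pairs in 7EX, 8 and 14 in 21EX, 0 genes in LP, 1 and 1 in 0PP, and 0 genes in 21EX against LP. Without 7EX-1, 21EX-2 and MP-1 together there were 2 genes in 7EX, 8 genes and 13 pairs in 21EX, 24 and 39 in MP, 4 and 1 in LP, 12 and 18 in 0PP, 12 genes in LP against MP and 1 in 21EX against LP.

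Leaving out each array in turn, with the remaining pair assumed to vary like the other groups, the count ran from 0 to 3 genes in 7EX, 1 (without 21EX-2) to 19 in 21EX, 0 to 21 (without MP-1) in MP, 0 to 2 in LP, 0 to 4 in 0PP, 0 to 0 in 0PP against LP, 0 to 4 in LP against MP and 0 to 4 in 21EX against LP. For pairs it ran from 0 to 1, 0 to 34, 0 to 31, 0 to 0 and 0 to 5. No shares of all genes or pairs are given for fits with arrays left out. With the array number as a replicate block 11 genes and 21 pairs passed in 21EX and no other count moved by over 1.5 times. 2 of 18 arrays correlated best with an array of their own number, so a lost call there is not read as a weaker effect.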
